A study of Mus musculus with 8 samples.

Results

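The enzymes that turn cholesterol into bile acids, together with the repressor Nr0b2 (SHP), were followed in livers that make a misfolding human protein with and without the stress factor CHOP. The 10 genes were chosen by name, for their place in the pathway, with earlier results of these data known. Out of 52551 rows counted per library they were Cyp7a1, Cyp8b1, Cyp27a1, Cyp7b1, Cyp39a1, Akr1d1, Hsd3b7, Baat, Slc27a5 and Nr0b2. All 10 were found in the files, and 9 had enough counts to be tested. Hsd3b7 did not.

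Both groups were livers of 6-week-old male C57BL/6 mice carrying PiZ, a transgene for the Z form of human alpha-1 antitrypsin (SERPINA1), which misfolds in the endoplasmic reticulum of hepatocytes. The PiZ/Chop-/- group, with 4 libraries, also lacked Chop, the gene Ddit3, and the PiZ group, with 4 libraries, kept it. Wild-type livers, which the design text also names, were not analysed here. The labels state neither the promoter of the transgene nor the kind of Chop deletion or the time of day of harvest. They do not say that the 4 libraries of a group are 4 mice, and p-values here therefore describe variation from library to library, part of which may be technical.

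Bile acids are made from cholesterol in hepatocytes by a classic and an alternative route. In the classic route Cyp7a1 makes the first and rate-limiting hydroxylation, and in the alternative route Cyp27a1 first hydroxylates the side chain and Cyp7b1 then the ring. Returning bile acids activate the receptor FXR (Nr1h4), which induces Nr0b2, and the Nr0b2 protein represses Cyp7a1 and Cyp8b1 by binding nuclear receptors such as LRH-1 (Nr5a2). Transcript levels of Cyp7a1 also follow the time of day and feeding.

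Messenger RNA was counted with QuantSeq, a method that reads the 3' end of each transcript. Total counts ran from 1850275 to 2375907 in PiZ/Chop-/- libraries and from 1650260 to 3064385 in PiZ libraries. Ddit3 averaged 3.03 ± 1.13 CPM in PiZ/Chop-/- livers and 152 ± 50.5 CPM in PiZ livers (SD, n = 4 each), where CPM is the count divided by the TMM-scaled library size and multiplied by 1000000, and its level followed the label in all 8. SERPINA1, which both groups carry, averaged 620 ± 70.9 CPM in PiZ/Chop-/- livers and 1451 ± 374 CPM in PiZ livers, so the groups also differed in the level of the transgene, with no overlap. Hepatocyte markers (9 genes, Alb and Ttr among them) summed to 55760 to 66711 CPM in PiZ/Chop-/- and 61047 to 77034 CPM in PiZ libraries, with 0 of 9 past the test. Fold changes are PiZ/Chop-/- over PiZ.

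Cyp7a1 was the only one of the 9 tested genes to pass the test, and it fell. It averaged 87.9 ± 20.6 CPM in PiZ/Chop-/- livers and 304 ± 82.0 CPM in PiZ livers (SD, n = 4 each), a level 3.45-fold lower without CHOP (95% interval 2.45 to 4.86). The raw counts were 187, 111, 175 and 245 in PiZ/Chop-/- libraries 1 to 4 and 657, 646, 919 and 430 in PiZ libraries 1 to 4. In CPM these were 86.9, 63.8, 86.9 and 114 in PiZ/Chop-/- libraries, against 404, 314, 295 and 204 in PiZ libraries. The highest PiZ/Chop-/- library thus lay below the lowest PiZ library, PiZ library 4. This was -1.79 on the log2 scale (SE 0.23, adjusted p = 0.000758, edgeR's quasi-likelihood test with Benjamini-Hochberg adjustment over all genes), the 12th lowest p of 8669 genes.

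Over all 8669 tested genes 1.03% passed the same test, 0.692% lower and 0.335% higher, and 7.88% had groups that did not overlap. Of the 9 members 1 passed, lower, and none passed higher. Since the members were chosen with earlier results of these data known, their share is a description. At an unadjusted p below 0.05 there were 2 members, Cyp7a1 and Cyp27a1, where 13.1% of all tested genes met that limit. The median log2 fold change of the 9 was 0.38, against -0.0016 over all tested genes, and 6 of the 9 were above 0, against 49.8% of all tested genes. Counts in bulk liver cannot tell less RNA per hepatocyte from fewer hepatocytes that make it.

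**Figure D1:**
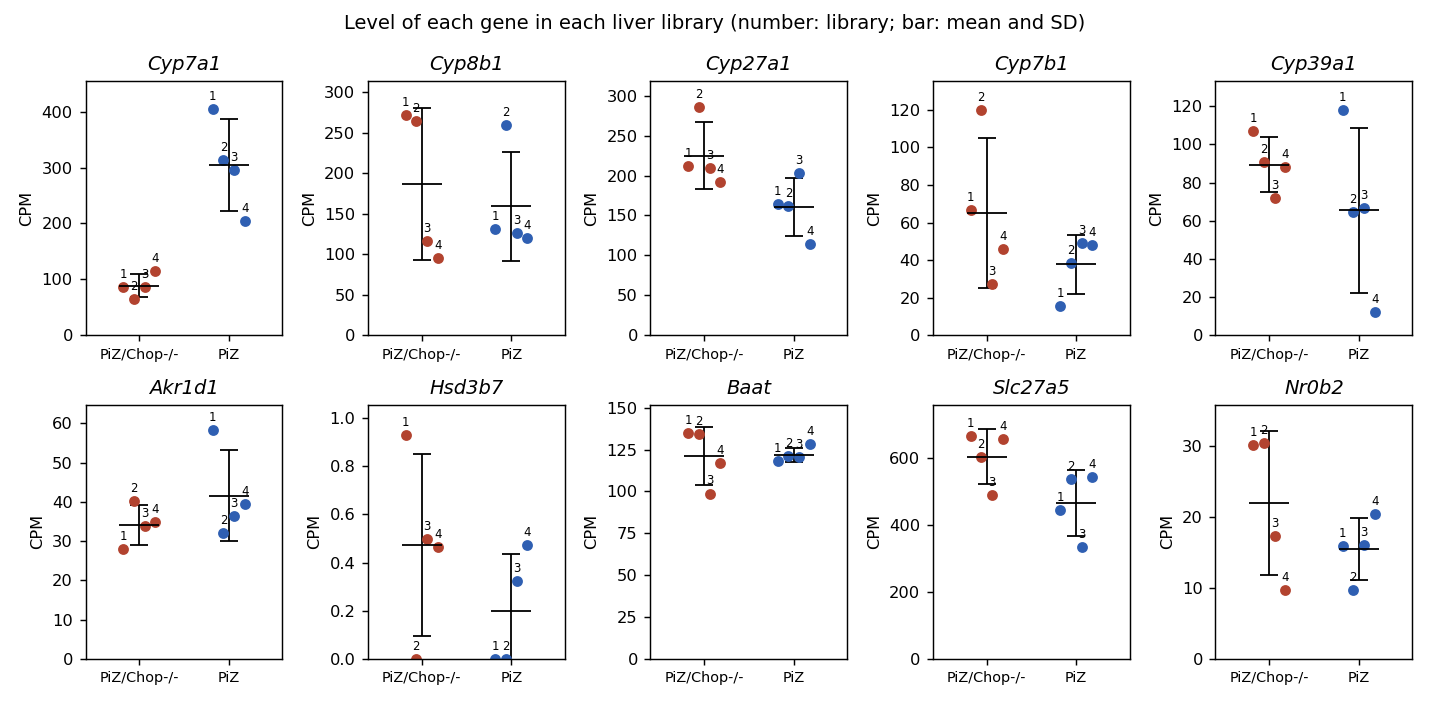
Level of each of the 10 genes in CPM (vertical axis from 0) in the 4 PiZ/Chop-/- and the 4 PiZ libraries. Each point is 1 library with its number, and bars are the mean and SD. Cyp7a1 shows 2 separate groups, 63.8 to 114 CPM in PiZ/Chop-/- and 204 to 404 CPM in PiZ libraries, while the groups of the other 9 genes overlap.

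Cyp7a1 (ENSMUSG00000028240) lies on the minus strand at chr4:6265612-6275633 (mm10, GENCODE M21), and no other annotated gene overlaps it, so its reads have no overlapping neighbour to be split with. Within 1 Mb of it 3 genes were tested, Nsmaf, Sdcbp and Tox, and 0 passed (lowest adjusted p = 0.390). Ddit3 itself lies on chromosome 10, where none of the 10 genes is found.

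The genes whose pattern over the 8 libraries lay closest to that of Cyp7a1 were Cd63, Lcn2 and Maoa. Likeness was the mean absolute difference of log2 CPM per library after each gene was centred, and it was 0.24 for Cd63, 0.27 for Lcn2 and 0.32 for Maoa, where the median over 7050 genes was 0.91. Cd63, a tetraspanin of lysosomes and exosomes, averaged 77.5 ± 20.9 CPM in PiZ/Chop-/- and 311 ± 93.5 CPM in PiZ livers (SD, n = 4 each). Lcn2, the secreted protein lipocalin-2, averaged 18.0 ± 8.13 CPM in PiZ/Chop-/- and 90.3 ± 41.4 CPM in PiZ livers. Maoa, monoamine oxidase A, averaged 12.2 ± 1.75 CPM in PiZ/Chop-/- and 39.6 ± 4.19 CPM in PiZ livers. These genes were picked for this likeness, so their fold changes are a description. Cd63 lies at chr10:128900989-128912822, on the chromosome of Ddit3 (chr10:127290774-127296288).

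Cyp8b1, the hydroxylase of the classic route that sets the share of cholic acid, did not pass. Its CPM was 271, 265, 116 and 95.5 in PiZ/Chop-/- libraries 1 to 4, and 132, 260, 126 and 120 in PiZ libraries 1 to 4. PiZ/Chop-/- libraries 1 and 2 and PiZ library 2 lay at 260 CPM or above and the other 5 at 132 CPM or below, so the groups overlapped. On the log2 scale the groups differed by 0.23 (SE 0.39, adjusted p = 0.857, edgeR), with a 95% interval of the fold from 0.638 to 2.16.

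The ratio of Cyp8b1 to Cyp7a1 within a library, which needs no scaling, was higher in PiZ/Chop-/- livers. It holds the same fall of Cyp7a1 (-1.79 on the log2 scale) and is no separate evidence, since Cyp8b1 alone did not pass. The log2 ratio of Cyp8b1 to Cyp7a1 counts was 1.64, 2.05, 0.41 and -0.26 in PiZ/Chop-/- libraries, against -1.62, -0.27, -1.23 and -0.77 in PiZ libraries. On average PiZ/Chop-/- livers held 1.95 counts of Cyp8b1 for each count of Cyp7a1 and PiZ livers 0.510. The difference of 1.93 on the log2 scale, 3.82-fold, gave an exact two-sided permutation p of 0.0286, the smallest that 4 against 4 libraries can give, and 0.0429 adjusted over the 3 ratios tested. The groups touched without overlap, at -0.26 in PiZ/Chop-/- library 4 and -0.27 in PiZ library 2. Without 1 library in turn the difference ran from 1.57 to 2.34.

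Cyp27a1, the mitochondrial sterol hydroxylase that starts the alternative route, was measured at 211, 286, 210 and 192 CPM in PiZ/Chop-/- libraries and at 164, 162, 203 and 114 CPM in PiZ libraries. PiZ library 3, at 203 CPM, was the only one within the range of the PiZ/Chop-/- libraries. The log2 fold change of 0.48 (SE 0.20) had an unadjusted p of 0.0315 and an adjusted p of 0.334 (edgeR), so it did not pass. The 95% interval of the fold was 1.03 to 1.89.

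Cyp7b1, the oxysterol hydroxylase of the alternative route, which is higher in male than in female mouse liver, varied more between libraries than between groups. It stood at 66.4, 120, 27.3 and 46.1 CPM in PiZ/Chop-/- libraries and at 15.4, 38.4, 48.9 and 47.9 CPM in PiZ libraries. The highest value was that of PiZ/Chop-/- library 2 and the lowest that of PiZ library 1. Its log2 fold change of 0.77 did not pass (SE 0.47, adjusted p = 0.540, edgeR; 95% interval of the fold 0.810 to 3.57). With 1 library left out it ran from 0.30, when PiZ/Chop-/- library 2 was dropped, to 1.02, when PiZ/Chop-/- library 3 was dropped. The log2 ratio of Cyp7b1 to Cyp27a1 averaged -1.98 ± 0.72 in PiZ/Chop-/- and -2.19 ± 0.89 in PiZ libraries (SD, n = 4 each). That difference of 0.21 was within the spread (exact two-sided permutation p = 0.686).

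Cyp39a1, a hydroxylase of the brain-derived oxysterol that reaches the liver, had 107, 90.8, 72.0 and 88.0 CPM in PiZ/Chop-/- libraries and 118, 64.6, 66.9 and 12.3 CPM in PiZ libraries. PiZ library 4, with 26 counts, was the low one, and the 4 PiZ libraries spanned the whole range of the other group. Over all 8 libraries the log2 fold change came to 0.46 (with SE 0.52, adjusted p = 0.769, edgeR; 95% interval of the fold 0.597 to 3.16), and with 1 library left out it ran from 0.13 without PiZ library 4 to 0.89 without PiZ library 1.

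The enzymes that reshape the steroid nucleus are Hsd3b7, a steroid dehydrogenase, and Akr1d1, a reductase of the A ring. Akr1d1 was measured at 27.9, 40.2, 33.8 and 34.9 CPM in PiZ/Chop-/- libraries and at 58.4, 32.1, 36.3 and 39.4 CPM in PiZ libraries. PiZ library 1 was the highest, and the other 7 libraries lay between 27.9 and 40.2 CPM. A log2 fold change of -0.27 did not pass (SE 0.23, adjusted p = 0.655, edgeR; 95% interval of the fold 0.588 to 1.16). It was -0.073 without PiZ library 1 and -0.38 without PiZ library 2, the ends of the range with 1 library left out.

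Hsd3b7 had 2, 0, 1 and 1 counts in PiZ/Chop-/- libraries and 0, 0, 1 and 1 counts in PiZ libraries, too few to be tested. No fold is given. In GENCODE M21 the 3' end of Hsd3b7 (chr7:127800604-127803802, plus strand) lies inside a second gene on the same strand, Gm49388 (chr7:127785608-127803802), which was listed at 0 counts in every library. The labels do not say how reads that match both genes were counted, so these counts are no measure of Hsd3b7 expression. Cyp7b1, Cyp39a1 and Akr1d1 each hold a short annotated gene on their strand, away from the 3' end and with at most 1 count in all.

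**Figure D2:**
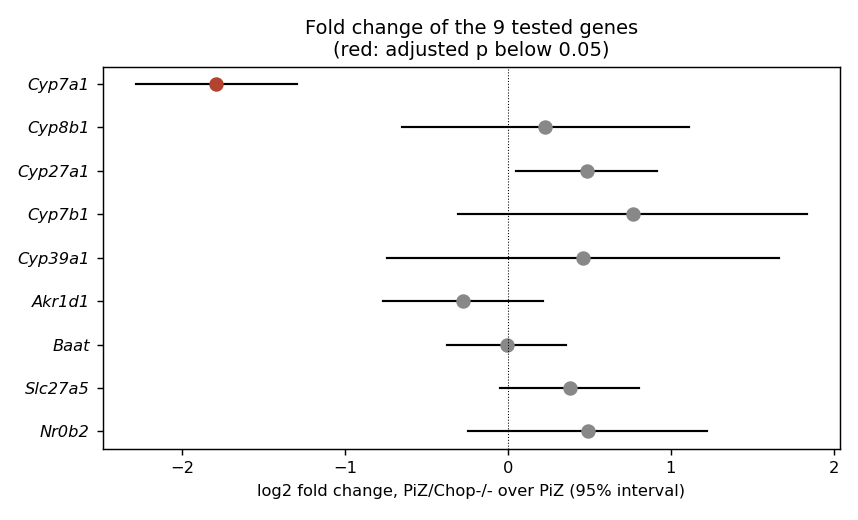
Log2 fold change of PiZ/Chop-/- over PiZ livers (horizontal axis) for the 9 tested genes, as points with 95% intervals from the edgeR fit. The interval of Cyp7a1, at a log2 fold change of -1.79, is the only one that belongs to a call (adjusted p = 0.000758), and those of the other 8 genes, with adjusted p from 0.334 to 0.993, reach or come close to 0.

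Conjugation takes 2 steps. Slc27a5, the ligase that joins bile acids to coenzyme A, had the highest level of the 10 genes, with 665, 602, 489 and 657 CPM in PiZ/Chop-/- libraries and 445, 536, 333 and 543 CPM in PiZ libraries. Only PiZ/Chop-/- library 3 lay within the range of the PiZ libraries. The difference did not pass, with a log2 change of 0.38 (SE 0.20, adjusted p = 0.439, edgeR; 95% interval of the fold 0.966 to 1.75).

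Baat, the transferase that then adds taurine or glycine, averaged 121 ± 17.3 CPM in PiZ/Chop-/- livers and 122 ± 4.32 CPM in PiZ livers (SD, n = 4 each). By library it had 135, 134, 98.8 and 117 CPM in PiZ/Chop-/- and 118, 121, 121 and 128 CPM in PiZ livers. The PiZ libraries lay within 10.1 CPM of each other and inside the range of the PiZ/Chop-/- libraries. On the log2 scale the change was -0.0074 (SE 0.17; edgeR adjusted p = 0.993), and the interval of the fold, 0.773 to 1.28, was the narrowest of the 9 on the log2 scale.

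The ratio of these conjugating enzymes within a library was slightly lower in PiZ/Chop-/- livers, though neither Baat nor Slc27a5 passed alone. The log2 ratio of Baat to Slc27a5 counts averaged -2.31 ± 0.13 in PiZ/Chop-/- and -1.90 ± 0.31 in PiZ libraries (SD, n = 4 each). The groups were only just separate, at -2.16 in PiZ/Chop-/- library 2 and -2.14 in PiZ library 2. The difference of -0.41 had an exact two-sided permutation p of 0.0286, the smallest possible, and 0.0429 adjusted over the 3 ratios. That adjusted value depends on the ratio of Cyp8b1 to Cyp7a1, which had the same p and holds the fall of Cyp7a1. The difference was -0.27 without PiZ library 3, which had the highest ratio (-1.47).

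**Figure D3:**
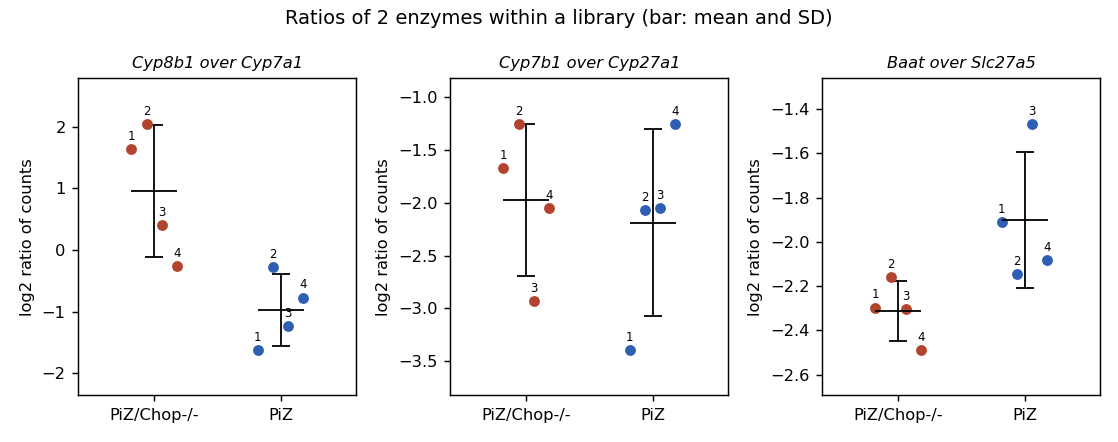
Log2 ratio of the counts of 2 enzymes within each library (vertical axis), for Cyp8b1 over Cyp7a1, Cyp7b1 over Cyp27a1 and Baat over Slc27a5, with the mean and SD of the 4 PiZ/Chop-/- and the 4 PiZ libraries. The first ratio is higher in PiZ/Chop-/- by 1.93 and the third lower by 0.41, in both cases with no overlap, and the middle one overlaps.

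Among the 9 member enzymes, Cyp7a1 in PiZ/Chop-/- livers lay among the lower ones by mean level, and in PiZ livers it ranked below Slc27a5 and above the other 7. Hsd3b7 is included in these ranks and in the sums below, though its counts are no measure of its expression. These levels are CPM of 3' ends, which are not divided by transcript length because a read marks the end of a transcript. In PiZ/Chop-/- libraries Cyp7a1 made up 5.53%, 3.98%, 7.67% and 8.49% of the summed CPM of the 9 enzymes, against 27.8%, 20.5%, 24.0% and 16.9% in PiZ libraries. The summed CPM itself overlapped, at 1133 to 1602 in PiZ/Chop-/- and 1209 to 1527 in PiZ libraries. In PiZ/Chop-/- livers Cyp27a1 (225 ± 41.9 CPM) and Cyp8b1 (187 ± 94.3 CPM) came after Slc27a5, with a difference within their SD. Cyp7a1 (87.9 ± 20.6 CPM) and Cyp39a1 (89.4 ± 14.3 CPM) were level there, while in PiZ livers Cyp7a1 averaged 304 CPM and Cyp39a1 65.5 CPM.

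Nr0b2, an unusual nuclear receptor with no DNA-binding domain, did not pass. It had 30.2, 30.5, 17.4 and 9.78 CPM in PiZ/Chop-/- libraries and 16.0, 9.72, 16.1 and 20.4 CPM in PiZ libraries, from 20 to 65 counts per library. PiZ/Chop-/- libraries 1 and 2 were the highest of the 8, and PiZ/Chop-/- library 4 and PiZ library 2 the lowest. Between groups the log2 change came to 0.49 (SE 0.34; adjusted p = 0.581 by edgeR), with a 95% interval of the fold from 0.845 to 2.33. It ran from 0.29 without PiZ/Chop-/- library 1 to 0.74 without PiZ/Chop-/- library 4.

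PiZ/Chop-/- libraries 1 and 2 were also the highest of the 8 in Cyp8b1, Cyp7b1 and Baat. They were the libraries of their group with the highest sum of the male-biased hepatocyte list, at 4735 and 4959 CPM, against 2123 and 2340 CPM in PiZ/Chop-/- libraries 3 and 4 and 563 to 2984 CPM in PiZ libraries. The part of this in the values of those 4 genes was not tested.

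Across the 8 libraries the relation of Nr0b2 to Cyp7a1 did not pass. Pearson's r of log2 CPM was -0.54 (exact two-sided permutation p = 0.179, adjusted p = 0.501 over 8 relations) and Spearman's rho was -0.71 (exact permutation p = 0.0576, adjusted p = 0.265). Because Cyp7a1 set the groups apart, this r mixes the difference between groups with the relation within them, and 4 libraries a group are too few to give r within each. With each group centred on its own mean r was -0.64. The uncentred r was 0.0067 without PiZ/Chop-/- libraries 1 and 2, the 2 farthest from the median of Nr0b2, so the uncentred value rested on them. The centred r was not taken without these 2, so whether it rests on them was not tested. The other 7 enzymes had r to Nr0b2 from -0.034 (Akr1d1) to 0.52 (Cyp7b1), and 0 of these 7 passed, by the adjusted or the unadjusted p. For Cyp7b1, the highest, the exact two-sided permutation p of r was 0.180 (0.501 adjusted), and Spearman's rho was 0.69 (exact permutation p = 0.0694, adjusted p = 0.265). Without the same 2 libraries r for Cyp7b1 was -0.18, so that value rested on them too.

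**Figure D4:**
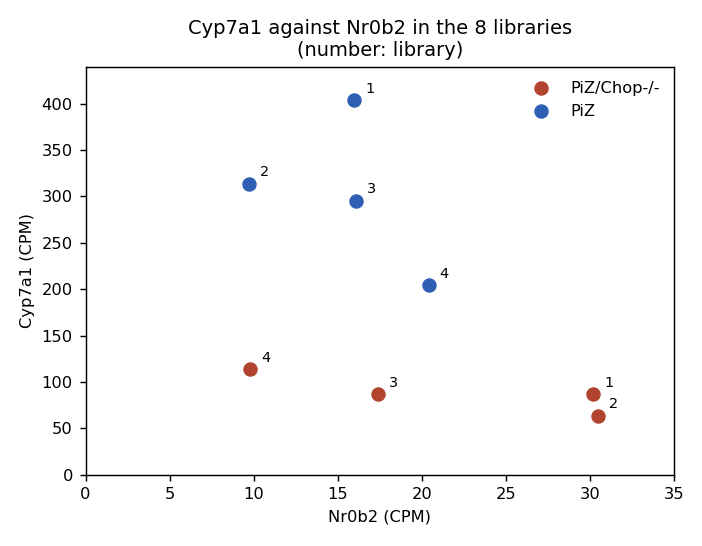
Cyp7a1 (vertical axis, CPM) against Nr0b2 (horizontal axis, CPM) in the 4 PiZ/Chop-/- and the 4 PiZ libraries, 1 numbered point per library. The PiZ/Chop-/- libraries lie at 114 CPM of Cyp7a1 or below over 9.78 to 30.5 CPM of Nr0b2, and the PiZ libraries at 204 CPM or above over 9.72 to 20.4 CPM.

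The genes closest in pattern to Nr0b2 were Ppfia1, Psen2 and Usp46, with mean absolute differences of 0.19, 0.20 and 0.22 in centred log2 CPM, where the median over 7050 genes was 0.55. Psen2, a presenilin, averaged 385 ± 134 CPM in PiZ/Chop-/- and 245 ± 83.8 CPM in PiZ livers (SD, n = 4 each), with PiZ/Chop-/- libraries 1 and 2 highest as in Nr0b2. The log2 fold changes of Ppfia1, Psen2 and Usp46 were 0.070, 0.65 and 0.82 (adjusted p = 0.951, 0.331 and 0.342, edgeR). All were picked for this likeness, so their shared pattern is a description.

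The 250 bases before the start site were found in the RefSeq table (GRCm38.p6, the assembly of mm10) for 5 of the 10 genes, Akr1d1, Cyp27a1, Cyp8b1, Hsd3b7 and Nr0b2. The other entries, Cyp7a1, Cyp7b1, Cyp39a1, Baat and Slc27a5, were missing. These windows were searched on both strands for TGCAAT, one side of the composite site of CHOP and C/EBP proteins, TGATGNAAN, the C/EBP-ATF response element, and AAGGTCA and AAGGCCA, core sites of LRH-1. The windows of Nr0b2 (chr4:133553126-133553375, plus strand) and Cyp8b1 (chr9:121916306-121916555, minus strand) are shown because they held the matches, and both genes are textbook targets of LRH-1. They run 5' to 3' along the gene, and capitals mark the matches.
Nr0b2: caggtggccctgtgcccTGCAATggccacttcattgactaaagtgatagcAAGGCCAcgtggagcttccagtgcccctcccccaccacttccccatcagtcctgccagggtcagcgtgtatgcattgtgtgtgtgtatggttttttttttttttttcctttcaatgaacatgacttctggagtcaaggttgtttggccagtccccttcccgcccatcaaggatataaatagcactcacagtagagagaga
Cyp8b1: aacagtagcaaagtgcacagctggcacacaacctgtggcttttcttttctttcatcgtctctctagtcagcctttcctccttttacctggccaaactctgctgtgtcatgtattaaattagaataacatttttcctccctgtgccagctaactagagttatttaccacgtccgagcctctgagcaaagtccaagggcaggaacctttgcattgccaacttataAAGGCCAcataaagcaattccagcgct

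AAGGCCA stood 200 bases before the start of Nr0b2 and 27 bases before that of Cyp8b1, and 5.24% of all 32851 promoter windows of this length hold it. TGCAAT stood 233 bases before the start of Nr0b2, and 7.32% of all windows hold it. No window of the 5 genes held TGATGNAAN (3.44% of all windows) or AAGGTCA (4.08%). The matches describe the letters of these windows and bear on no result above.

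Apart from Cyp7a1, the rest of the pathway held 1 gene past the test. Among other enzymes of bile acid synthesis, which shorten the side chain or modify the ring, 18 were listed, 17 were found in the files and 13 were tested, and 0 passed. Of the 13, 11 were above 0, with a median log2 fold change of 0.15. Scp2, a peroxisomal sterol carrier and thiolase, had the lowest p and a log2 fold change of 0.43 (adjusted p = 0.443, edgeR). Akr1c14, a hydroxysteroid dehydrogenase, had 0.42 (adjusted p = 0.447). Cyp2c70, which makes the muricholic acids of mice, averaged 510 ± 101 CPM in PiZ/Chop-/- and 479 ± 141 CPM in PiZ livers (SD, n = 4 each), a gene named for its role after its values were seen.

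Among carriers of bile acids and bile lipids 14 of 16 were tested. The median log2 fold change was 0.26, 1 fell and 0 rose. Abcc4, an export pump of the basolateral membrane, fell, with 4.65, 2.87, 3.97 and 4.66 CPM in PiZ/Chop-/- libraries and 57.2, 95.2, 68.2 and 113 CPM in PiZ libraries (log2 fold change -4.33, SE 0.30, adjusted p = 5.03e-07, edgeR). Abcb11, the canalicular bile salt pump and a target of FXR, averaged 204 ± 10.2 CPM in PiZ/Chop-/- and 177 ± 35.6 CPM in PiZ livers (SD, n = 4 each). Slc10a1, the uptake carrier NTCP, averaged 96.0 ± 24.6 CPM in PiZ/Chop-/- and 99.0 ± 30.8 CPM in PiZ livers. The adjusted p was 0.672 for Abcb11 and 0.962 for Slc10a1, which were named for their roles after their values were seen.

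Among regulators 17 of 19 were tested, 0 passed and the median log2 fold change was 0.15. Onecut1 (HNF6), a hepatocyte transcription factor, had the lowest p, with 138, 149, 92.8 and 183 CPM in PiZ/Chop-/- libraries and 20.9, 73.4, 15.4 and 10.4 CPM in PiZ libraries. The groups did not overlap, and PiZ library 2 was well above the rest of its group (log2 fold change 2.23, SE 0.60, adjusted p = 0.185, edgeR). Nr1i3, the receptor CAR, had 0.86 (SE 0.30, adjusted p = 0.258).

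The receptors of the feedback loop were named for their roles after their values were seen. Nr1h4 averaged 33.4 ± 5.14 CPM in PiZ/Chop-/- and 31.8 ± 2.80 CPM in PiZ livers (SD, n = 4 each; adjusted p = 0.923, edgeR). Nr5a2 averaged 59.3 ± 9.36 CPM in PiZ/Chop-/- and 53.5 ± 12.6 CPM in PiZ livers (adjusted p = 0.810), and Hnf4a, an activator of Cyp7a1, 157 ± 21.1 CPM in PiZ/Chop-/- and 163 ± 21.1 CPM in PiZ livers (adjusted p = 0.928). Fgfr4, the hepatocyte receptor of the gut hormone FGF15, had 22.3, 21.3, 19.4 and 17.7 CPM in PiZ/Chop-/- libraries and 16.6, 13.6, 9.97 and 10.9 CPM in PiZ libraries. Every PiZ/Chop-/- library was above every PiZ library, but the log2 fold change of 0.67 (SE 0.26) had an adjusted p of 0.281. Klb, the co-receptor of Fgfr4, averaged 5.22 ± 2.66 CPM in PiZ/Chop-/- and 6.71 ± 2.48 CPM in PiZ livers, and Fgf15 had 0 counts in every library.

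**Figure D5:**
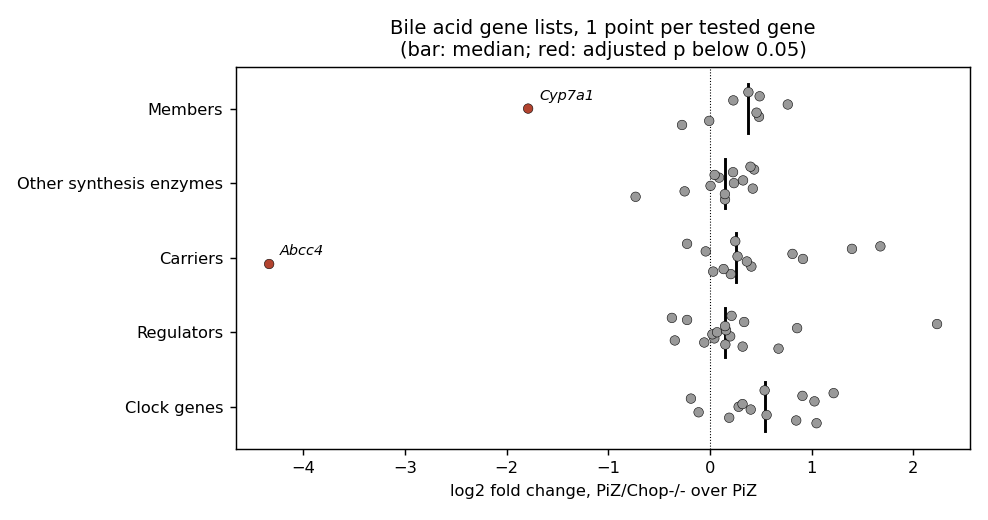
Log2 fold change of PiZ/Chop-/- over PiZ livers (horizontal axis), 1 point per tested gene, for the 9 members, 13 other synthesis enzymes, 14 carriers, 17 regulators and 13 clock genes, with the median of each list as a bar. Cyp7a1 (-1.79) and Abcc4 (-4.33), in red, are the only genes of these lists past the test, and the list medians lie between 0.15 and 0.54.

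Clock genes differed widely between libraries of both groups. Their summed CPM was 1063, 287, 969 and 982 in PiZ/Chop-/- libraries and 311, 838, 757 and 425 in PiZ libraries, with 0 of 13 tested genes past the test and a median log2 fold change of 0.54. Bhlhe40 had a log2 fold change of 1.05 (adjusted p = 0.423, edgeR) and Per1 0.91 (adjusted p = 0.405). Tef, at 60.9 to 509 CPM in PiZ/Chop-/- and 105 to 430 CPM in PiZ libraries, made up much of these sums, which pool genes of different phases. Dbp had 26.5, 0, 50.6 and 70.3 CPM in PiZ/Chop-/- libraries and 2.46, 52.0, 33.1 and 23.3 CPM in PiZ libraries. Nfil3 had 4.65, 33.3, 9.43 and 10.7 CPM in PiZ/Chop-/- libraries and 24.0, 6.80, 7.40 and 9.02 CPM in PiZ libraries. Both were named after their values were seen. PiZ/Chop-/- library 2 and PiZ library 1 thus had the lowest Dbp and the highest Nfil3. Their Cyp7a1 was the lowest and the highest of all libraries, at 63.8 and 404 CPM. The part of the clock state in the level of Cyp7a1 was not tested.

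Zonal hepatocyte genes gave 1 call. Of 8 tested pericentral genes 1 fell, Rhbg, an ammonium transporter, at 17.1 ± 5.67 CPM in PiZ/Chop-/- and 54.5 ± 7.84 CPM in PiZ livers (SD, n = 4 each; log2 fold change -1.66, adjusted p = 0.00353, edgeR), and the list median was 0.044. Of 9 periportal genes 0 passed (median 0.38), with Pck1 at 0.48 (adjusted p = 0.365) and Hal at 0.70 (adjusted p = 0.352). Of 9 male-biased genes 1 rose, Hsd3b5, a male-specific steroid enzyme, at 46.0 ± 18.7 CPM in PiZ/Chop-/- and 5.75 ± 3.59 CPM in PiZ livers (log2 fold change 2.96, adjusted p = 0.00353), with all 9 above 0 and a median of 0.96, and Hsd3b5 has close paralogs with which reads may be shared.

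Markers of other cell types moved with the groups in places, and their part in the values of the 10 genes was not tested. Kupffer cell and macrophage markers summed to 774 to 943 CPM in PiZ/Chop-/- and 1003 to 1471 CPM in PiZ libraries, without overlap, with 10 of 11 below 0 and 0 past the test (Cd5l at -0.71, adjusted p = 0.179; C1qb at -0.52, adjusted p = 0.250, edgeR). Endothelial markers summed to 393 to 412 CPM in PiZ/Chop-/- and 277 to 380 CPM in PiZ libraries, also without overlap but higher in PiZ/Chop-/-. Of these, 8 of 11 were above 0 and 0 passed the test (Kdr at 0.45, Bmp2 at 0.52). Stellate cell markers summed to 357 to 506 CPM in PiZ/Chop-/- and 463 to 594 CPM in PiZ libraries, with 9 of 9 tested below 0 and 0 past the test (Col1a1 at -1.15, Col3a1 at -0.85). Cholangiocyte markers summed to 34.9 to 63.8 CPM in PiZ/Chop-/- and 39.9 to 58.8 CPM in PiZ libraries, with 3 of 10 tested and 0 past the test (Spp1 at -0.89, adjusted p = 0.341). Intestinal markers summed to 21.8 to 30.3 CPM in PiZ/Chop-/- and 12.1 to 18.0 CPM in PiZ libraries, without overlap. Muc2 and Fabp6 had 0 counts in every library, and Fabp2, the 1 tested, was at 0.70 (adjusted p = 0.304). Within the hepatocyte list Apoa1 had 0.49 and Ahsg -0.50 (adjusted p = 0.337 and 0.287).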

How the data were processed

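Per the labels' protocols, total RNA of liver was made into QuantSeq 3' libraries and read from one end over 75 bases. Per the file headers, each deposited file holds raw counts by gene. The submitters' processing notes name STAR, HTSeq and mm10, without versions. The sources used here do not state the annotation, strand setting or treatment of reads with several matches, and errors from depth cover counting only. Groups and replicate numbers came from the sample titles. Of 52550 mouse IDs, 52403 were matched to symbols in GENCODE M21.

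Genes were tested with edgeR 4.0.16 (R 4.3.3): filterByExpr by group with a minimum count of 10 kept 8669 genes, followed by TMM scaling, a robust quasi-likelihood fit and glmQLFTest with no covariate, and Benjamini-Hochberg adjustment over all 8669, with a threshold of 0.05. SE is the log2 fold change over the square root of F, and 95% intervals use the fit's degrees of freedom. Ratios used counts plus 0.5, and log2 CPM a prior count of 2. Relations of Nr0b2 ran over 8 enzymes, since Hsd3b7 was not tested. On simulated counts of this comparison over 8669 genes (5 runs, 200 changed genes each), the share recovered was 32.8% for 2-fold and 90.4% for 4-fold changes, and 5.73% of calls were false.

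The members and gene lists were chosen with earlier results of these data known. The text names all members, Ddit3 and SERPINA1, genes of each other list past the threshold or else the lowest p (up to 2), and the 3 genes most like Cyp7a1 or Nr0b2 among protein-coding genes with a named symbol and a mean log2 CPM no lower than 3; others are marked as named after their values were seen. The labels do not say that replicate numbers pair the libraries, and the main fit did not pair them. Alternatives were RLE, upper quartile or no scaling, DESeq2 1.42.0, limma-voom (limma 3.58.1), a non-robust fit, no filter or 5 CPM in 4 libraries, a replicate block, removal of the 20 most abundant genes, each library left out and, added after seeing the data, PiZ libraries 1 and 4 left out.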

Additional observations from a re-analysis of the deposited data

Results flagged for a closer look

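Cyp8b1 in the PiZ group was marked because 1 library stood far from the others. PiZ library 2 had 260 CPM, and the other 3 had 132, 126 and 120 CPM, so the gap to the nearest was 0.914 of the range of the group, over Dixon's 95% critical value for 4 libraries. It was 1 of 26 groups of 4 values screened, and chance marks about 1 in 20. Without PiZ library 2 the log2 fold change of Cyp8b1 was 0.57.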

How the results depend on the processing

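Cyp7a1 passed the test, lower in PiZ/Chop-/- livers, under all 19 alternatives run, with log2 fold changes from -1.93 to -1.62 and adjusted p from 4.27e-13 to 0.00748, and 1 member passed in each of them. The number of genes called in all was 89, and it moved to 209 with DESeq2, 357 with no filter, 53 without PiZ library 3, and 49, 169, 46 and 51 without PiZ/Chop-/- libraries 1 to 4, so it ran from 46 to 169 with a library left out, each from a fit on 7 libraries. With the replicate block it was 76, of which 61 were among the 89, and Cyp7a1 had -1.78 (adjusted p = 0.00380, edgeR). Deviations of same-numbered libraries from their group means had correlations of 0.072, -0.058, 0.033 and 0.066 over 7449 genes, and not every library correlated best with its own number. Among members that did not pass, Cyp8b1 turned to -0.042 without PiZ libraries 1 and 4, and ran from -0.0069 to 0.57 with 1 library left out. Baat, at -0.0074, turned to 0.00010 with RLE scaling, 0.0036 with DESeq2, 0.0077 with no filter, 0.0077 without the 20 most abundant genes and 0.0085 without PiZ libraries 1 and 4, and ran from -0.064 to 0.083 with 1 library left out. The difference in the ratio of Cyp7b1 to Cyp27a1 was -0.19 without PiZ library 1. The cause of these turns was not tested. Depth limits Nr0b2 (20 to 65 counts per library) and Hsd3b7 (at most 2) most, and a 2-fold change in a single gene can be missed with these libraries.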
